A study of Capra hircus with 6 samples.

Results

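The platelet-derived growth factor (PDGF) genes were examined in mGSCs-I-SB, a line of goat (Capra hircus) cells labelled as spermatogonial stem cells. The 6 genes are the ligands PDGFA, PDGFB, PDGFC and PDGFD and the receptors PDGFRA and PDGFRB, taken by gene symbol from 16599 genes with values. The set was chosen by a measured value, the low PDGFB counts of both knockdown lines against the control, so those PDGFB differences are given as values without a test. The other 5 genes came in by family name, with earlier results of these data known. All 6 passed the low-count filter, PDGFB only through its shCON counts, and were among the 12665 genes tested.

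The mRNA was sequenced in 6 libraries, 2 from each of 3 lines. The shUCHL1 line carries short hairpin RNA against UCHL1 (genotype label UCHL1 knockdown), a ubiquitin hydrolase used as a marker of undifferentiated spermatogonia. The shHSPA8 line carries short hairpin RNA against HSPA8 (HSPA8 knockdown), the constitutive HSP70 chaperone. The shCON line carries control hairpin RNA (genotype label WT). All 3 derive from the same cell line and were grown in DMEM/F12 with 10% fetal bovine serum, the controls included. The labels give neither the number of hairpins or clones per line nor whether the paired libraries are separate cultures. The p-values therefore measure the spread between the 2 libraries of a line, pooled over the 3 lines, and these libraries may be technical repeats. That spread was unlike between lines. Relative to counting error, as chi-square per degree of freedom between the 2 libraries, it was 21.7 in shCON, 11.6 in shHSPA8 and 2.32 in shUCHL1.

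PDGF ligands are secreted dimers that bind receptor tyrosine kinases and drive growth and migration of mesenchymal cells. PDGFA and PDGFB are cut by furin-like proteases inside the cell. PDGFC and PDGFD leave the cell in a latent form with a CUB domain that proteases remove outside. PDGFRA binds the A, B and C chains, and PDGFRB binds mainly the B and D chains. In the mammalian testis PDGFA and PDGFRA are needed for adult Leydig cells, and both receptors are found in interstitial and peritubular cells.

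Total counts lay between 15710532 and 16417274 per library. CPM are read counts divided by the TMM-scaled size of the library. UCHL1 averaged 96.0 ± 2.36 CPM in shUCHL1 and 428 ± 32.3 CPM in shCON (SD, n = 2 each). HSPA8 averaged 2579 ± 73.4 CPM in shHSPA8, 1.58-fold below shCON with 4064 ± 67.9 CPM (SD, n = 2 each). In shUCHL1 HSPA8 was higher than in shCON, at 5298 ± 65.4 CPM (log2 fold change 0.38, edgeR adjusted p = 0.0129). UCHL1 in shHSPA8, at 360 ± 36.5 CPM, was not called against shCON (edgeR adjusted p = 0.151). Support for the germ cell label was limited. Of 17 germ cell markers, 9 carried values and 6 passed the low-count filter, and their summed level ran from 181 to 518 CPM, more than any other marker from UCHL1 itself, the target of 1 hairpin line. MAEL lay between 46.1 and 68.2 CPM and ID4 between 1.96 and 10.2 CPM, while DDX4 lay between 0.429 and 1.96 CPM. All 10 markers of fibroblasts and interstitial progenitors were above 1 CPM in every library, and COL1A1 ran from 7629 to 10351 CPM. PDGFRA is itself among those 10 markers.

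Transcript levels per length, as FPKM (fragments scaled to transcript length and library size), set the genes far apart. PDGFC was the most abundant ligand transcript in every library, at 75.3 to 92.2 FPKM, and lay between the 89.5th and the 92.0th percentile of the tested genes. The receptors followed with 21.0 to 34.3 FPKM for PDGFRA and 22.0 to 39.1 FPKM for PDGFRB. PDGFD ran from 5.20 to 14.8 FPKM, PDGFA from 0.920 to 1.89 FPKM and PDGFB from 0.180 to 1.56 FPKM. Within shUCHL1 the order was PDGFC, PDGFRA, PDGFRB, PDGFD, PDGFA and PDGFB, with no overlap between neighbours. In shHSPA8 PDGFRB stood above PDGFRA, and neighbours again did not overlap. In shCON the libraries of PDGFRA and PDGFRB overlapped, and so did those of PDGFA and PDGFB.

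Against shCON, the PDGF genes did not share a direction. PDGFD was above the control in both knockdown lines, PDGFRB was higher in shHSPA8, and PDGFB was the gene with the lowest fold change of the family in each line. PDGFA, PDGFC and PDGFRA did not pass the test in any comparison. A gene was called at an adjusted p under 0.05. Of the 5 members tested in shUCHL1 against shCON, 1 was called, higher, where 15.7% of all tested genes were called (8.54% higher and 7.15% lower). In shHSPA8 against shCON 2 of 5 were called, both higher, where 14.7% of all tested genes were called (8.66% higher and 6.02% lower). In shUCHL1 against shHSPA8 1 of 6 was called, lower, where 14.6% of all tested genes were called (6.20% higher and 8.35% lower). These 6 include PDGFB, which passed the low-count filter only through its shCON counts. With library-size scaling in place of TMM the split over all genes moved to 1368 higher and 641 lower in shUCHL1 against shCON, and to 1339 higher and 740 lower in shUCHL1 against shHSPA8. That scaling moved the median of all genes by 0.10 on the log2 scale in the comparison of the knockdown lines and changed no call of a PDGF gene. Counting PDGFB, which the choice of genes used, libraries did not overlap in CPM for 4 of 6 members in shUCHL1 against shCON (56.5% of all tested genes), for 4 of 6 in shHSPA8 against shCON (51.0%) and for 3 of 6 between the knockdown lines (65.7%).

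**Figure D1:**
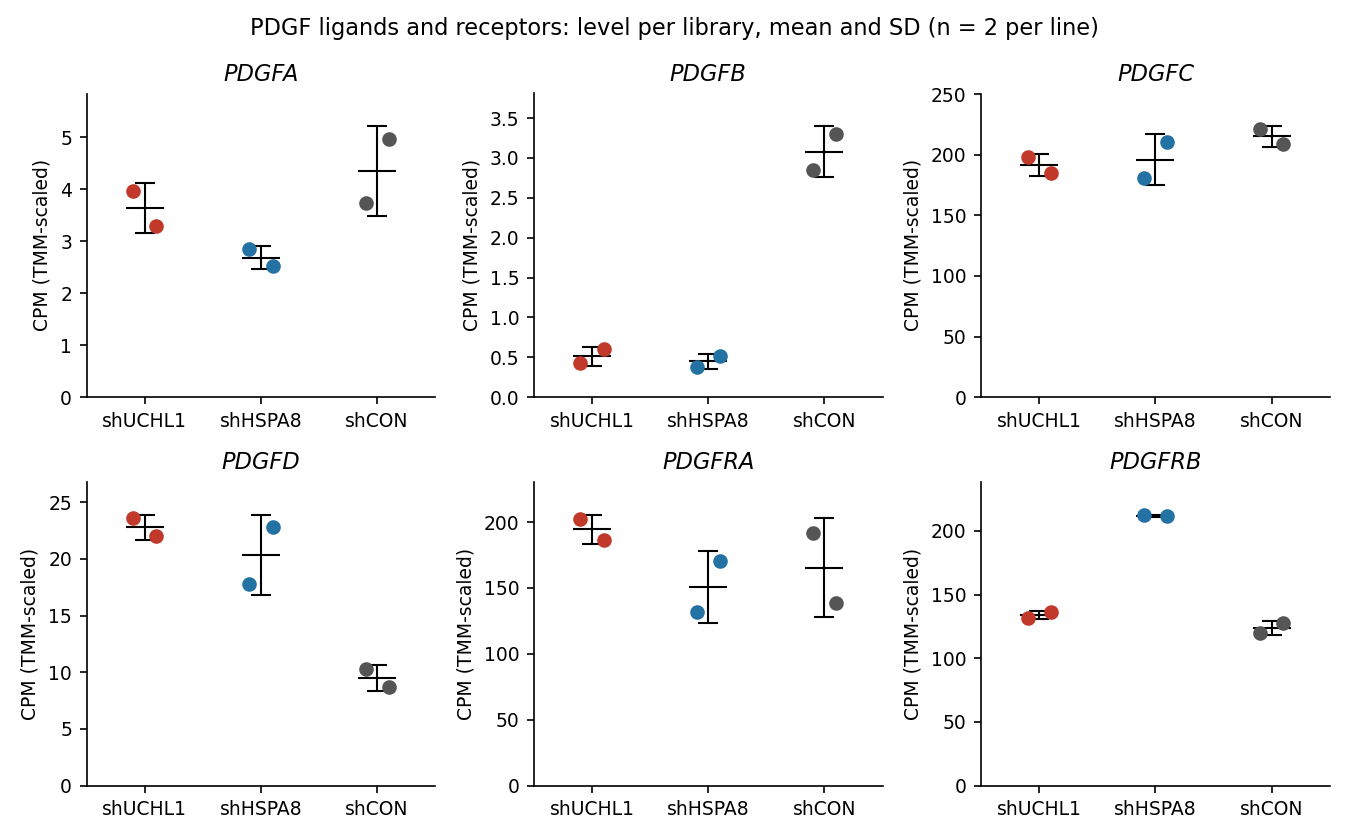
Level of each PDGF gene in each library, as TMM-scaled CPM on a linear axis from 0 in panels of different scale. Points are libraries, the bar is the mean and the whiskers the SD (n = 2 per line). PDGFB in the knockdown lines stays at or below 0.600 CPM, PDGFD in the knockdown lines lies above both shCON libraries, and PDGFRB in shHSPA8 lies above all other libraries.

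PDGFB, the ligand that binds both receptors and that endothelial cells and platelets are known to release, was the transcript from which the set was chosen. It was counted 7 and 10 times in the shUCHL1 libraries, 6 and 8 times in the shHSPA8 libraries, and 45 and 54 times in the shCON libraries. Both knockdown lines lay below both control libraries, and the knockdown lines overlapped each other. The mean level was 0.514 ± 0.121 CPM in shUCHL1, 0.448 ± 0.0975 CPM in shHSPA8 and 3.08 ± 0.323 CPM in shCON (SD, n = 2 each). The fitted difference from shCON was a log2 fold change of -2.56 (SE 0.29) in shUCHL1, 5.91-fold lower, and -2.76 (SE 0.30) in shHSPA8, 6.78-fold lower.

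These PDGFB values rest on few reads. The counts summed over a line were 17 in shUCHL1 (95% exact Poisson interval 9.90 to 27.2), 14 in shHSPA8 (7.65 to 23.5) and 99 in shCON (80.5 to 121), and these intervals cover counting error only. On the log2(FPKM + 1) scale, which compresses low genes, the differences were -0.96 in shUCHL1 and -1.02 in shHSPA8. In all 3 lines PDGFB was among the least abundant tested genes, between the 1.96th and the 3.37th percentile by FPKM in the knockdown lines and at the 15.5th and 16.7th percentile in shCON. Between the knockdown lines, the log2 fold change of PDGFB was 0.20 in shUCHL1 over shHSPA8 (SE 0.41). PDGFB passed the low-count filter only through its shCON counts, so this difference too is given without a test. The 95% interval allowed a ratio from 0.584 to 2.25.

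PDGFD, the ligand that acts mainly through PDGFRB after its CUB domain is removed, rose in both knockdown lines. Its level was 23.6 and 22.0 CPM in the shUCHL1 libraries, 17.8 and 22.8 CPM in the shHSPA8 libraries, and 10.3 and 8.69 CPM in the shCON libraries. All 4 knockdown libraries lay above both control libraries. In shUCHL1 it was 2.40-fold higher than in shCON (log2 fold change 1.26, SE 0.16, edgeR adjusted p = 0.00322). In shHSPA8 it was 2.14-fold higher than in shCON (log2 fold change 1.10, SE 0.16, edgeR adjusted p = 0.00522). These comparisons share the shCON libraries. Leaving out any 1 library kept both calls, with edgeR adjusted p up to 0.0331 in shUCHL1 and up to 0.0273 in shHSPA8.

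The size of the PDGFD rise was not told apart between the knockdown lines. In shUCHL1 over shHSPA8 the log2 fold change was 0.17 (SE 0.15, edgeR adjusted p = 0.511), and the 95% interval of the ratio ran from 0.872 to 1.44. The gene DDI1 overlaps PDGFD in RefSeq's table for assembly ARS1.2, and it had 1 count over all 6 libraries.

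PDGFC, which acts through PDGFRA after proteolytic release, did not pass the test in either line. It had 198 and 185 CPM in the shUCHL1 libraries, 181 and 211 CPM in the shHSPA8 libraries, and 221 and 209 CPM in the shCON libraries. The shUCHL1 libraries lay below both shCON libraries, and those of shHSPA8 overlapped them. The log2 fold change was -0.17 (SE 0.10) in shUCHL1 and -0.13 (SE 0.10) in shHSPA8, and neither passed (edgeR adjusted p = 0.325 and 0.432). The 95% interval of the ratio ran from 0.755 to 1.05 in shUCHL1 and from 0.772 to 1.07 in shHSPA8. In shUCHL1 over shHSPA8 the log2 fold change was -0.03 (SE 0.10, edgeR adjusted p = 0.854), and its sign turned with library-size scaling.

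PDGFA, the ligand that binds PDGFRA alone as a homodimer, was low in every library. It had 3.97 and 3.30 CPM in the shUCHL1 libraries, 2.84 and 2.52 CPM in the shHSPA8 libraries, and 3.74 and 4.96 CPM in the shCON libraries. The shHSPA8 libraries were the lowest pair and did not overlap shCON, whereas those of shUCHL1 did. In shHSPA8 the log2 fold change was -0.70 (SE 0.22), with an unadjusted p of 0.0161 and an edgeR adjusted p of 0.0837. Without shCON replicate 1 the edgeR adjusted p was 0.0402 and the log2 fold change -0.90, and over all alternatives the adjusted p ran from 0.0402 to 0.277. In shUCHL1 the log2 fold change was -0.26 (SE 0.21, edgeR adjusted p = 0.475), with a 95% interval of the ratio from 0.591 to 1.18. In shUCHL1 over shHSPA8 it was 0.44 (SE 0.23, edgeR adjusted p = 0.241).

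**Figure D2:**
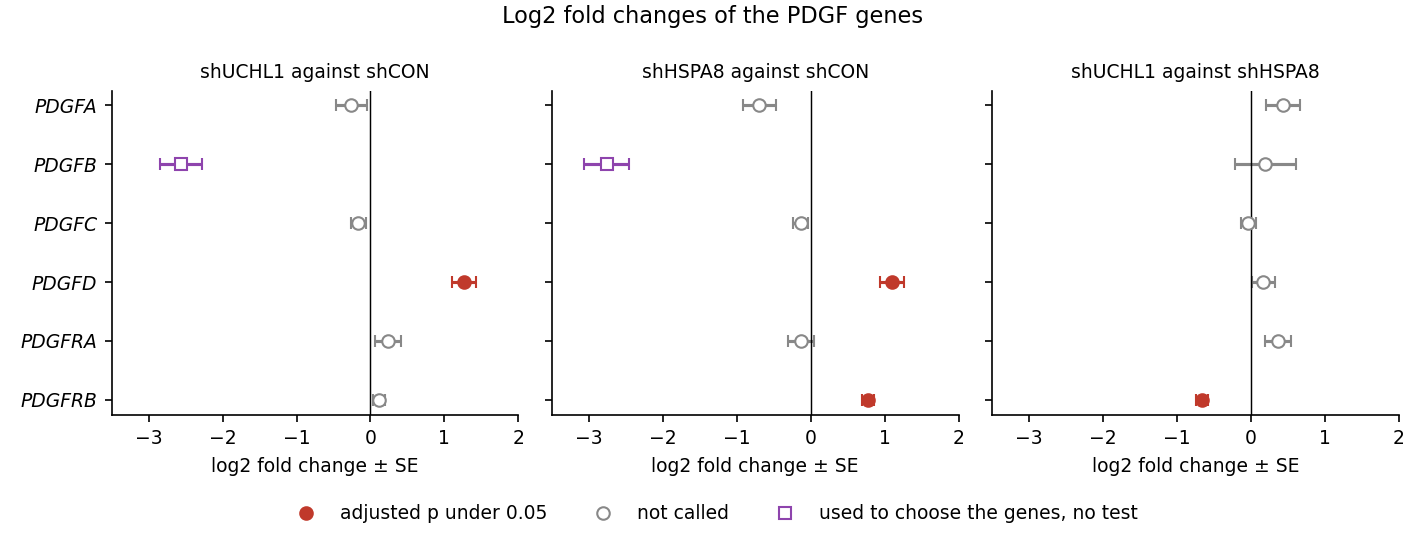
Log2 fold change of each PDGF gene in 3 comparisons, on a common axis, with whiskers of 1 SE. Filled circles were called by edgeR, open circles were not, and squares mark the PDGFB differences that chose the genes and carry no test. The open PDGFB circle between the knockdown lines is a description. PDGFD is filled in both comparisons with shCON (1.26 and 1.10), and PDGFRB is filled in shHSPA8 against shCON (0.78) and in shUCHL1 against shHSPA8 (-0.66).

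Set side by side per length, the ligand transcripts were mostly PDGFC. PDGFC made up 84.0% and 84.1% of the summed ligand FPKM in the shUCHL1 libraries, 86.3% and 85.5% in the shHSPA8 libraries, and 91.2% and 91.0% in the shCON libraries. PDGFD held 14.3% in each shUCHL1 library, 12.2% and 13.3% in the shHSPA8 libraries, and 6.11% and 5.41% in the shCON libraries. PDGFB held 0.203% and 0.320% in the shUCHL1 libraries, 0.206% and 0.237% in the shHSPA8 libraries, and 1.33% and 1.62% in the shCON libraries. So the knockdown libraries held a larger share of PDGFD and a smaller share of PDGFB and PDGFC than either control library. The PDGFB share restates the difference that chose the genes. Shares of a sum depend on each other, so a larger PDGFD share lowers that of PDGFC, which was itself not called in either line. The summed ligand FPKM itself overlapped between lines, at 97.0 to 104 in shUCHL1, 87.2 to 101 in shHSPA8 and 96.2 to 101 in shCON.

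The FPKM of PDGFD stood 70.4 and 44.6 times above that of PDGFB in the shUCHL1 libraries, 59.2 and 56.2 times in the shHSPA8 libraries, and 4.61 and 3.33 times in the shCON libraries. PDGFB entered the choice of genes, so this ratio is a description. The sum of PDGFA and PDGFB was 1.80 and 1.59 FPKM in shUCHL1, 1.26 and 1.16 FPKM in shHSPA8, and 2.72 and 3.45 FPKM in shCON. This sum includes PDGFB and is a description too. For the latent ligands PDGFC and PDGFD the sum was 95.4 to 102 FPKM in shUCHL1, 85.9 to 100.1 FPKM in shHSPA8 and 92.7 to 98.4 FPKM in shCON.

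PDGFRB, the receptor of pericytes and other mural cells, rose in shHSPA8 and did not pass the test in shUCHL1. It had 132 and 136 CPM in the shUCHL1 libraries, 213 and 211 CPM in the shHSPA8 libraries, and 120 and 128 CPM in the shCON libraries. The shHSPA8 libraries stood alone at the top, and those of shUCHL1 lay just above shCON. In shHSPA8 it was 1.71-fold higher than in shCON (log2 fold change 0.78, SE 0.08, edgeR adjusted p = 0.00118), and over all alternatives the log2 fold change ran from 0.71 to 0.82. In shUCHL1 the log2 fold change over shCON was 0.11 (SE 0.08, edgeR adjusted p = 0.417), with a 95% interval of the ratio from 0.946 to 1.24.

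The difference in PDGFRB between the knockdown lines was tested directly. The shUCHL1 level was 1.58-fold below that of shHSPA8 (log2 fold change -0.66, SE 0.08, edgeR adjusted p = 0.00379). Without shUCHL1 replicate 1 the log2 fold change was -0.64 and the edgeR adjusted p 0.0794. Without shUCHL1 replicate 2 they were -0.69 and 0.0625, and such a fit takes the spread of a lone library from the remaining lines. In bulk RNA, fewer cells of a type and less RNA per cell cannot be told apart, which holds for this receptor and for every level given here.

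PDGFRA, the receptor of mesenchymal progenitors, differed between libraries of the same line, most of all in shCON. It had 202 and 187 CPM in the shUCHL1 libraries, 132 and 170 CPM in the shHSPA8 libraries, and 192 and 139 CPM in the shCON libraries. The shUCHL1 libraries lay above both shHSPA8 libraries, and both knockdown lines overlapped shCON. The largest SD within a line was 0.330 on the log2 scale for PDGFRA and 0.0635 for PDGFRB. Over shCON the log2 fold change of PDGFRA was 0.24 (SE 0.18, edgeR adjusted p = 0.436) in shUCHL1 and -0.13 (SE 0.18, edgeR adjusted p = 0.683) in shHSPA8. The 95% interval of the ratio ran from 0.882 to 1.57 in shUCHL1 and from 0.684 to 1.22 in shHSPA8. With 2 libraries per line, the values are compatible with any ratio within those bounds.

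The log2 fold change of PDGFRA in shUCHL1 over shHSPA8 was 0.37 (SE 0.18) and was not called (edgeR adjusted p = 0.211). For that pair the authors' deposited table gives a log2 ratio of -0.35, written as shHSPA8 over shUCHL1, with a p-value of 0.00676. For PDGFRB the authors' deposited table gives 0.68 in the same direction of writing, with a p-value of 7.01e-11. The sources used here do not name the test behind these p-values or any adjustment.

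The balance of the receptors was described by a ratio. PDGFRA FPKM divided by PDGFRB FPKM was 1.33 and 1.19 in the shUCHL1 libraries, 0.536 and 0.694 in the shHSPA8 libraries, and 1.39 and 0.939 in the shCON libraries. Both shHSPA8 libraries lay below every other library, and shUCHL1 fell within the range of shCON. The ratio is given as a description, with no test. The summed receptor FPKM was 60.0 and 58.3 in shUCHL1, 60.0 and 65.0 in shHSPA8, and 52.8 and 46.4 in shCON.

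**Figure D3:**
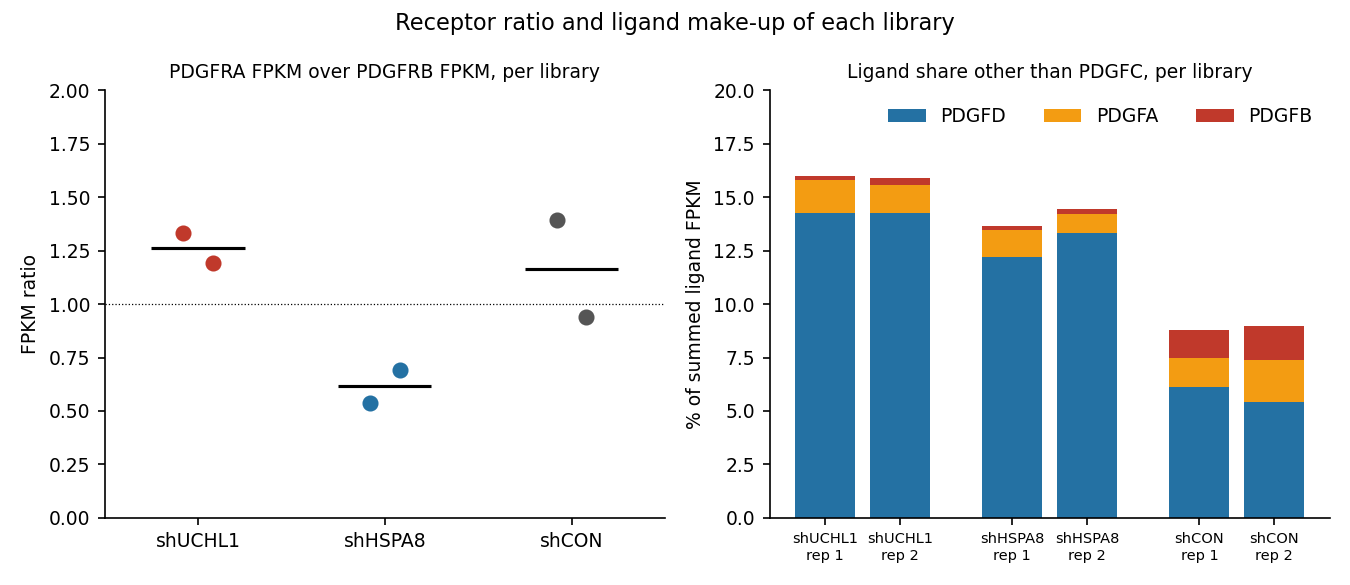
Left, PDGFRA FPKM over PDGFRB FPKM in each library, with the line mean as a bar and equality as a dotted line. Right, percent of the summed ligand FPKM held by PDGFD, PDGFA and PDGFB in each library, with PDGFC as the remainder up to 100%. The shHSPA8 ratios are 0.536 and 0.694, and PDGFD takes 12.2% to 14.3% in the knockdown libraries and 5.41% to 6.11% in shCON.

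The receptor genes have relatives as neighbours in mammalian genomes, and in the ARS1.2 gene table the next protein-coding gene after PDGFRA was KIT and after PDGFRB was CSF1R. KIT, the stem cell factor receptor, had 0 or 1 count per library. CSF1R, the receptor for colony-stimulating factor 1, had 7 and 9 counts in the shUCHL1 libraries, 1 and 11 in the shHSPA8 libraries, and 3 and 4 in the shCON libraries. Beside PDGFB, the neighbours CBX7 and RPL3 had log2 fold changes of -0.33 and -0.28 in shUCHL1 (edgeR adjusted p = 0.302 and 0.101). In shHSPA8 they had -0.36 and -0.39 (edgeR adjusted p = 0.266 and 0.0385). RPL3, a ribosomal protein gene, was the only neighbour of PDGFB called there, and its fold change was small beside that of PDGFB.

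Likeness of pattern was measured as the distance between log2 CPM profiles over the 6 libraries, each taken relative to its shCON mean, among 11005 genes. Nearest to PDGFB were EDN1 (distance 0.48), GABRA4 (0.51), EMCN (0.63), PPP2R2C (0.82) and PCDH7 (0.99). Likeness to PDGFB mainly repeats the fall below shCON that chose the genes, so it finds other genes with a like fall and is a description. EDN1, which encodes the vasoconstrictor peptide endothelin, lay -2.24 in shUCHL1 and -2.27 in shHSPA8 relative to shCON on the log2 CPM scale, and GABRA4, a GABA receptor subunit, -2.37 and -2.21. Nearest to PDGFRB were IER3 (0.14), CNIH4 (0.15), CTHRC1 (0.18), VASH1 (0.18) and PIGC (0.18). Nearest to PDGFRA were PPP1R2 (0.05), ZBTB34 (0.06), CACUL1 (0.06), STAM2 (0.06) and CTDSPL2 (0.08). Those 5 share the within-line spread of PDGFRA as well as its line means, since all 6 libraries enter the distance.

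Around the ligands and receptors, pathway genes were read as lists. These lists, and the cell type marker lists, were chosen with earlier results of these data known. Their counts beside the shares of all tested genes are descriptions, and no list was tested as a set. Of 10 tested genes listed for the processing or binding of ligands, 1 rose in shUCHL1 and none fell. The median log2 fold change was 0.11, against 0.01 for all tested genes, of which 8.54% rose and 7.15% fell. In shHSPA8 4 of the 10 rose and none fell (median 0.24, against -0.00 for all tested genes, of which 8.66% rose and 6.02% fell). LRP1, an endocytic receptor that associates with PDGFRB, had 965 and 967 CPM in the shUCHL1 libraries, 1581 and 1737 CPM in the shHSPA8 libraries, and 891 and 853 CPM in the shCON libraries. It rose 1.90-fold in shHSPA8 (log2 fold change 0.93, SE 0.08, edgeR adjusted p = 4.90e-04) and was lower in shUCHL1 than in shHSPA8 (-0.78). The convertase PCSK5 also rose in shHSPA8, at 1.28 ± 0.111 CPM there and 0.342 ± 0.0359 CPM in shCON (SD, n = 2 each). The remaining rises, named after their values were seen, were the PDGF-binding matrix protein SPARC (0.46) and ENG (0.57). ENG is a co-receptor of TGF-beta ligands that the list includes. The PCSK5 call was lost without shCON replicate 1 or either shHSPA8 library (edgeR adjusted p up to 0.0758), and those of SPARC and ENG without shHSPA8 replicate 1 (edgeR adjusted p = 0.0615 and 0.0742).

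PLAT, the tissue plasminogen activator that cleaves PDGFC, averaged 49.8 ± 1.69 CPM in shUCHL1 and 36.5 ± 1.37 CPM in shCON (SD, n = 2 each; log2 fold change 0.45, edgeR adjusted p = 0.0208). With either shUCHL1 library left out PLAT was not called (edgeR adjusted p up to 0.230). Without shHSPA8 replicate 1, 1 gene of the list was called in shHSPA8 against shCON.

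Of 24 tested genes that dock at the activated receptors, 3 rose and 1 fell in shUCHL1 (median log2 fold change 0.07), and 2 rose and 1 fell in shHSPA8 (median 0.09). Over all tested genes 15.7% were called in shUCHL1 and 14.7% in shHSPA8, close to the shares in this list. Without shCON replicate 2, 2 of the list fell in shUCHL1 and 3 in shHSPA8. The Src family kinases FYN and SRC changed in opposite directions. FYN had 142 and 136 CPM in the shUCHL1 libraries, 112 and 114 CPM in the shHSPA8 libraries, and 56.7 and 54.8 CPM in the shCON libraries. In shUCHL1 it rose by 1.32 on the log2 scale, which is 2.49-fold (SE 0.09, edgeR adjusted p = 2.94e-04) and 2.02-fold in shHSPA8 (1.02, SE 0.09, edgeR adjusted p = 4.44e-04). SRC averaged 52.2 ± 0.589 CPM in shUCHL1, 55.1 ± 2.51 CPM in shHSPA8 and 78.5 ± 1.82 CPM in shCON (SD, n = 2 each). It fell by 0.59 in shUCHL1 and by 0.51 in shHSPA8 on the log2 scale (edgeR adjusted p = 0.00628 and 0.0104). The SRC call was lost with either shUCHL1 library left out in shUCHL1 (edgeR adjusted p up to 0.0970) and without shHSPA8 replicate 2 in shHSPA8 (edgeR adjusted p = 0.0851). VAV3 also rose in both lines, from a control level of at most 0.122 CPM against which no fold is given. Its call was lost without shUCHL1 replicate 1 in shUCHL1 (edgeR adjusted p = 0.0566), where 1 rise was then left, and without shCON replicate 1 or either shHSPA8 library in shHSPA8 (edgeR adjusted p up to 0.0877).

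Of 21 tested genes that end receptor signalling, 1 rose and 1 fell in shUCHL1 (median log2 fold change 0.04), where 15.7% of all tested genes were called. In shHSPA8 4 rose and 3 fell (median 0.05), where 14.7% of all tested genes were called. The difference between these counts was not tested. LRIG1, a membrane protein that limits receptor tyrosine kinases, averaged 92.1 ± 7.22 CPM in shHSPA8 and 48.9 ± 1.69 CPM in shCON (SD, n = 2 each; log2 fold change 0.91, edgeR adjusted p = 0.00119). PTPRJ, a phosphatase that acts on PDGFRB, averaged 32.8 ± 1.02 CPM in shHSPA8 and 55.3 ± 3.65 CPM in shCON (SD, n = 2 each; log2 fold change -0.75, edgeR adjusted p = 0.00290). SPRY4, a feedback inhibitor of the Ras pathway, averaged 25.9 ± 0.902 CPM in shUCHL1 and 47.2 ± 0.281 CPM in shCON (SD, n = 2 each; log2 fold change -0.86, edgeR adjusted p = 0.00179). Each of these 3 calls held without any 1 library. The number of genes that fell in shHSPA8 was 1 with any single shUCHL1 or shHSPA8 library left out. In shUCHL1 4 genes rose without shCON replicate 1, and none without shUCHL1 replicate 1 or replicate 2.

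Genes that serum or PDGF induces in resting fibroblasts moved in both directions. In shUCHL1 4 of 20 rose and 4 fell (median log2 fold change 0.08), and in shHSPA8 6 rose and 3 fell (median 0.16). Over all tested genes 8.54% rose and 7.15% fell in shUCHL1, and 8.66% rose and 6.02% fell in shHSPA8. EGR1, an immediate early transcription factor, had 22.1 and 21.4 CPM in the shUCHL1 libraries, 107 and 108 CPM in the shHSPA8 libraries, and 26.9 and 28.5 CPM in the shCON libraries. It rose 3.88-fold in shHSPA8 (log2 fold change 1.95, SE 0.09, edgeR adjusted p = 5.11e-05). The orphan nuclear receptor NR4A1 rose 3.39-fold in shHSPA8 (1.76, SE 0.15, edgeR adjusted p = 4.44e-04). CCN2, a matricellular growth factor that the file lists as CTGF, had 199.7 and 201 CPM in the shUCHL1 libraries, 329 and 357 CPM in the shHSPA8 libraries, and 467 and 488 CPM in the shCON libraries. It fell 2.38-fold in shUCHL1 (-1.25, SE 0.08, edgeR adjusted p = 2.94e-04). Without shUCHL1 replicate 1 or replicate 2, no gene of this list was called higher in shUCHL1, and 2 and 3 were called lower. Rises there numbered 2 without shCON replicate 1 or either shHSPA8 library, and in shHSPA8 1 gene fell without shHSPA8 replicate 2.

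Transcription factors reported to act on the PDGFA or PDGFB promoter gave 1 rise and 2 falls among 8 in shUCHL1 (15.7% of all tested genes called) and 2 rises in shHSPA8 (14.7% called). Without shCON replicate 1 there were 3 rises and 1 fall in shUCHL1. KLF5 averaged 10.7 ± 0.827 CPM in shUCHL1, 10.7 ± 0.983 CPM in shHSPA8 and 6.04 ± 0.0317 CPM in shCON (SD, n = 2 each). Its log2 fold change was 0.82 in each line (edgeR adjusted p = 0.0109 and 0.0106), and it was not called in shUCHL1 with either shUCHL1 library left out or in shHSPA8 without shHSPA8 replicate 2 (edgeR adjusted p up to 0.125 and of 0.0700). EGR1 had opposite signs in the lines, with -0.35 in shUCHL1 (edgeR adjusted p = 0.0496) beside the rise in shHSPA8. Its call in shUCHL1 was lost without each library other than shCON replicate 1 (edgeR adjusted p up to 0.318). In shUCHL1 the other gene that fell was WT1 (-0.65, edgeR adjusted p = 0.0456), which was called without shCON replicate 2 and not without any other library (edgeR adjusted p up to 0.271).

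Among 10 tested receptors and ligands of the related VEGF and colony-stimulating factor families, 3 rose and 2 fell in shUCHL1 and 5 rose and 1 fell in shHSPA8. Over all tested genes 8.54% rose and 7.15% fell in shUCHL1, and 8.66% rose and 6.02% fell in shHSPA8. Their median log2 fold change was 0.03 in shUCHL1 and 0.42 in shHSPA8. FLT1, a VEGF receptor, had 55.4 and 54.3 CPM in the shUCHL1 libraries, 19.5 and 19.3 CPM in the shHSPA8 libraries, and 6.71 and 6.06 CPM in the shCON libraries. In shUCHL1 it rose by 3.10 on the log2 scale, which is 8.58-fold (SE 0.12, edgeR adjusted p = 8.34e-05). In shHSPA8 it rose by 1.60 (SE 0.12, edgeR adjusted p = 2.52e-04). VEGFC averaged 162 ± 4.95 CPM in shUCHL1 and 273 ± 2.31 CPM in shCON (SD, n = 2 each; log2 fold change -0.76, edgeR adjusted p = 0.00167). Rises numbered 1 without shUCHL1 replicate 1 in shUCHL1, and 3 without shHSPA8 replicate 1 in shHSPA8. The count of falls in shUCHL1 was 1 without any library other than shCON replicate 1, and in shHSPA8 none fell with a shUCHL1 or shHSPA8 library left out.

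**Figure D4:**
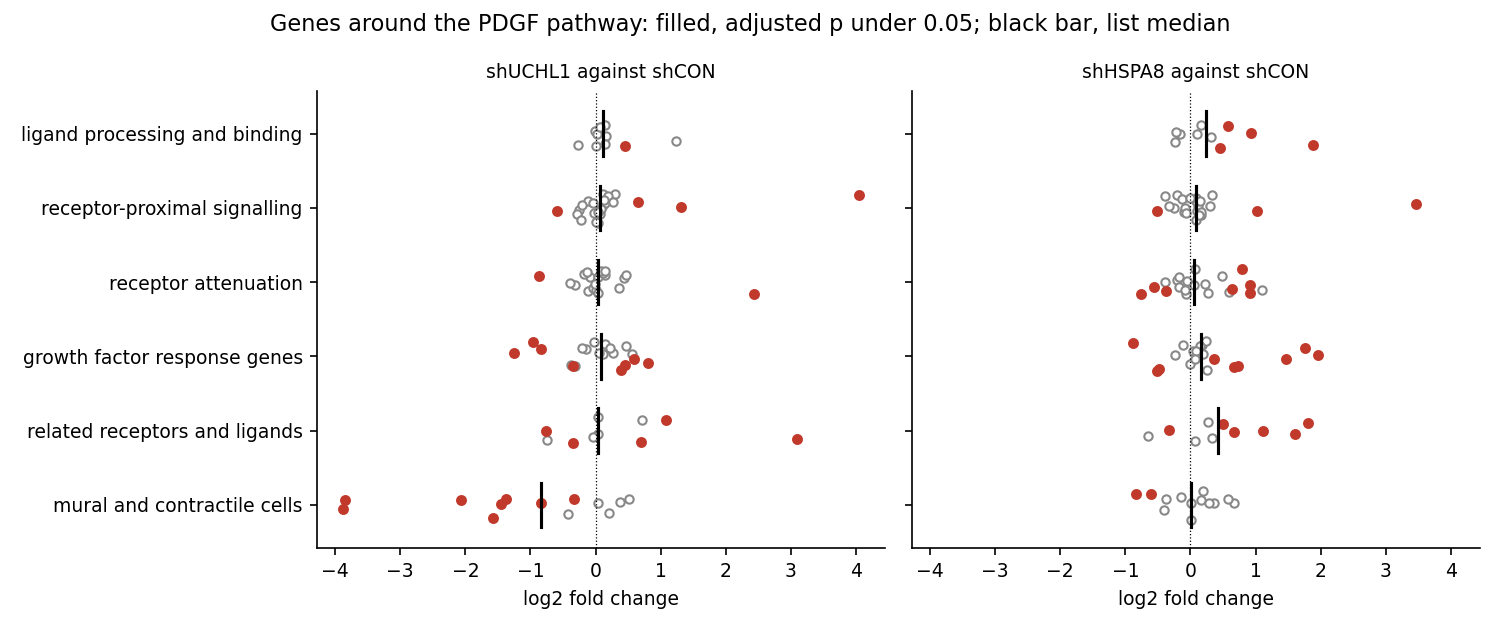
Log2 fold change of every tested gene of 6 lists against shCON, in shUCHL1 (left) and shHSPA8 (right). Filled points were called by edgeR, and the black bar is the list median. The mural and contractile list lies lowest in shUCHL1, with a median of -0.83, against 0.01 in shHSPA8.

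Markers of mural and contractile cells, the cells in which PDGFRB is best known, went down in shUCHL1 without a change in PDGFRB passing the test. Of 13 tested, 8 fell in shUCHL1 and none rose (median log2 fold change -0.83), and 2 fell in shHSPA8 and none rose (median 0.01). Over all tested genes 7.15% fell in shUCHL1 and 6.02% in shHSPA8. CNN1, the smooth muscle calponin, averaged 0.850 ± 0.354 CPM in shUCHL1, 18.6 ± 3.14 CPM in shHSPA8 and 12.5 ± 2.43 CPM in shCON (SD, n = 2 each). CSPG4, the pericyte proteoglycan NG2, fell by 0.61 in shHSPA8 on the log2 scale (edgeR adjusted p = 0.00439), where PDGFRB rose. The summed level of the 16 listed markers was 3210 and 3265 CPM in the shUCHL1 libraries, 6088 and 5722 CPM in the shHSPA8 libraries, and 6076 and 6900 CPM in the shCON libraries. RGS5, a defining pericyte marker, was at 0 in every library except shUCHL1 replicate 2, at 0.06 CPM. The part of these markers in the PDGFRB values was not tested. Fewer of these markers were called lower in shUCHL1 with any shUCHL1 or shHSPA8 library left out. Without shCON replicate 1, a rise was called in each knockdown line and more markers fell in shHSPA8.

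Markers of endothelial cells, a known source of PDGFB, were mixed. Their summed level over 8 markers with values was 39.6 and 41.1 CPM in the shUCHL1 libraries, 58.4 and 57.8 CPM in the shHSPA8 libraries, and 87.0 and 83.1 CPM in the shCON libraries. EMCN, an endothelial sialomucin, made up most of the shCON sum, with 8.13 and 9.59 CPM in shUCHL1, 7.52 and 6.98 CPM in shHSPA8, and 52.3 and 49.6 CPM in shCON. The defining markers PECAM1 and CLDN5 reached at most 0.673 CPM in any library, and CDH5 lay between 0.759 and 1.65 CPM. Of 6 endothelial markers tested, 1 rose and 1 fell in shUCHL1 (median log2 fold change 0.57). In shHSPA8 2 rose and 1 fell (median 0.32). Over all tested genes 8.54% rose and 7.15% fell in shUCHL1 (median 0.01). In shHSPA8 8.66% of all tested genes rose and 6.02% fell (median -0.003). VWF, the platelet-binding clotting protein, rose in shUCHL1 (1.32, edgeR adjusted p = 0.0477), a call lost without any 1 library (edgeR adjusted p up to 0.253). In shHSPA8 the transcription factor ERG rose (0.59, edgeR adjusted p = 0.00758), as did the VEGF receptor KDR (1.81, edgeR adjusted p = 0.0288), whose call was lost with any shHSPA8 or shCON library left out (edgeR adjusted p up to 0.110). The part of endothelial markers in the PDGFB values was not tested. The fibroblast and progenitor markers summed to 32916 and 33413 CPM in shUCHL1, 44322 and 46070 CPM in shHSPA8, and 32999 and 32352 CPM in shCON. In shUCHL1 this sum hides opposite changes. Of 10 tested, 3 rose there, among them DCN (1.07) and COL3A1 (0.79), and 2 fell, THY1 (-1.28) and FN1 (-1.11). In shHSPA8 4 rose and none fell, beside the shares of all tested genes given above. These markers summed higher in shHSPA8, as PDGFRB did, and their part in the PDGFRB rise was not tested.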

How the data were processed

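Messenger RNA of 6 libraries was read from 1 table of the whole series. The authors deposited, per the file headers, an FPKM value and a read count per library. The authors deposited these counts with fractions for 1014 to 1117 genes per library, so the expected counts (their estimator is not named) were rounded before testing. Per the file headers, the authors also deposited a log2 ratio and a p-value for each pair of lines. Trimmomatic 0.36 is listed as a tool, per the submitters' processing notes. The sources used here name no aligner, counter, genome build or strand setting. Of 33229 entries, 16599 carry values and the others were not used. The RefSeq table of assembly ARS1.2 held all 16599 gene IDs and served for names and neighbours only.

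Testing used the quasi-likelihood F test of edgeR (edgeR 4.0.16, limma 3.58.1 and DESeq2 1.42.0 in R 4.3.3) with TMM scaling, the filterByExpr filter and 1 fit over all 6 libraries with the line as its term. Adjusted p-values are Benjamini-Hochberg over 12665 genes per comparison, and genes under 0.05 are called. The SE is the log2 fold change over the square root of F. The test procedure was run on simulated counts, with changes placed in shUCHL1 alone and no difference in spread between lines. That run does not test the calls given here. Groups came from the sample titles. Members and lists were chosen with earlier results of these data known. From each list the 2 largest called rises and falls per comparison with shCON were eligible to be named, and not all are described. CCN1, CCN2 and a further gene were matched by older symbols. Alternatives were DESeq2, RLE or library-size scaling, other filters, a replicate block, 4 libraries per fit, limma on log2(FPKM + 1) or log2(FPKM + 0.1), and leaving out each library.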

Additional observations from a re-analysis of the deposited data

How the results depend on the processing

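Both PDGFD calls and the PDGFRB call in shHSPA8 held under every alternative run. Without 1 library at a time, called genes numbered 528 to 2615 in shUCHL1 against shCON, 920 to 2416 in shHSPA8 against shCON and 257 to 3083 between the knockdown lines, and called PDGF members 2 to 3 in shHSPA8 against shCON and 0 to 1 between the knockdown lines. The log2 fold change of PDGFRB between the knockdown lines then ran from -0.69 to -0.64, and those of PDGFB from -2.84 to -2.36 in shUCHL1 and from -3.00 to -2.56 in shHSPA8. The log2 fold change of PDGFA in shHSPA8 ran from -0.90 to -0.48 and that of PDGFRA in shHSPA8 from -0.35 to 0.10. Between the knockdown lines PDGFB ran from -0.07 to 0.43, PDGFC from -0.14 to 0.0782 and PDGFD from -0.0051 to 0.35. None of these uncalled values has a settled sign where its range crosses 0.

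With 4 libraries per fit, 1104 genes were called in shHSPA8 against shCON and 3116 between the knockdown lines. On log2(FPKM + 1) and log2(FPKM + 0.1), PDGFB had -0.96 and -2.12 in shUCHL1 and -1.02 and -2.33 in shHSPA8, as pseudocounts compress low values. PDGFC between the knockdown lines turned to 0.0688 with library-size scaling and to 0.0601 and 0.0608 on the FPKM scales, uncalled each time.

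Whether libraries were prepared in pairs is not known, and the main fit used no pairing. Deviations of same-numbered libraries correlated by 0.234 for shUCHL1 and shCON, -0.537 for shHSPA8 and shCON, and -0.225 for shUCHL1 and shHSPA8. A factor shared by libraries of different lines, if there was one, was not modelled in the main fit. With a replicate block, 1230 genes were called in shUCHL1 against shCON, 1131 in shHSPA8 against shCON and 923 between the knockdown lines, and no call of a PDGF gene changed. With the numbers of shHSPA8 crossed, chosen after seeing the data, 3978, 3883 and 4453 genes and 2, 3 and 2 PDGF members were called. Of the called list genes, 25 of 46 in shUCHL1 and 19 of 45 in shHSPA8 were lost without at least 1 library.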

Other observations

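PDGFRL, a gene named for its likeness to PDGF receptors and no member of the set, was looked up after its values were seen. It averaged 4.51 ± 0.36 CPM in shUCHL1, 9.10 ± 1.26 CPM in shHSPA8 and 2.83 ± 0.241 CPM in shCON (SD, n = 2 each). In shHSPA8 its log2 fold change over shCON was 1.68 (SE 0.18, edgeR adjusted p = 0.00128), higher in both libraries. In shUCHL1 it was 0.67 (SE 0.20) and missed the threshold (edgeR adjusted p = 0.0611). Between the knockdown lines it was -1.01 (SE 0.17, edgeR adjusted p = 0.0109), lower in both shUCHL1 libraries than in shHSPA8.

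The next protein-coding gene after PDGFD in the ARS1.2 table, LOC102191717, was also looked up after its values were seen. It had 65.0 and 69.5 CPM in the shUCHL1 libraries, 61.8 and 62.8 CPM in the shHSPA8 libraries, and 32.7 and 34.2 CPM in the shCON libraries. Its log2 fold change over shCON was 1.01 in shUCHL1 and 0.90 in shHSPA8 (edgeR adjusted p = 8.96e-04 and 0.00108), beside 1.26 and 1.10 for PDGFD. The gene before PDGFD, DYNC2H1, had -0.09 and -0.20 and was not called (edgeR adjusted p = 0.836 and 0.627).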
